A study of Mus musculus with 8 samples.

Results

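The miRNAs of the Dlk1-Dio3 imprinted cluster on mouse chromosome 12 were examined on 8 one-colour Agilent arrays of C3H10T1/2, a hedgehog-responsive mesenchymal line of mouse. They were chosen by miR number, ignoring letter and arm, from a list of 47 numbers, all of which had a probe. This gave 73 of the 611 mouse miRNAs on the array, carried by 208 probes and 20 spots for each miRNA. All 73 matched a gene lying between Dlk1 and Dio3 in the RefSeq annotation of GRCm38.p6.

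The WT group received wild type IhhN, the signalling fragment of Indian hedgehog, at 750 nM during 48 h, and the MT group the E95K mutant at the same dose and time. Cells of the control group were not induced with protein according to their induction label, although another of their labels repeats 750 nM. Each group had 2 RNA samples, and each WT RNA was put on 2 arrays, so that there were 4 WT, 2 MT and 2 control arrays. All cells were of 1 line, and the labels do not say that the RNA samples came from separate cultures, so the tests measure only the spread between these samples.

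All 8 arrays lay on 1 slide. WT replicate 1 filled columns 1 and 2 of row 1 and WT replicate 2 columns 3 and 4, while row 2 held the MT arrays (columns 1 and 2) and then the control arrays. Between 104 and 150 mouse miRNAs were detected on an array. The fewest, 104 and 106, were on WT replicate 1 array 1 and MT replicate 1, both in column 1, where the negative control spots also spread most, with SDs of 6.63 and 5.61 signal units, and of 2.91 to 3.76 elsewhere.

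The Dlk1-Dio3 region is imprinted, meaning that each of its genes is read from the chromosome of 1 parent only. The protein-coding genes Dlk1, Rtl1 and Dio3 are active on the paternal chromosome, and the long noncoding RNAs Meg3, Rian and Mirg, together with the miRNAs processed from the same strand, on the maternal one. These miRNAs are known chiefly from the embryo, the placenta, the brain and stem cells. A miRNA guides a silencing complex to mRNAs that pair with its seed, here taken as bases 2 to 8 of the mature RNA.

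Mature sequences are shown 5′ to 3′ with the seed in capitals, as given by RefSeq for GRCm38.p6. The first is miR-494-3p, the member detected on every array, which lies at chr12:109715367-109715388 on the plus strand. It is followed by its neighbours miR-329-3p and miR-679-5p, and by miR-381-3p and miR-539-5p, which flank miR-487b, the gene of the other detected member. None of these neighbours was detected.
miR-494-3p: uGAAACAUacacgggaaaccuc
miR-329-3p: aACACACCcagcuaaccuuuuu
miR-679-5p: gGACUGUGaggugacucuuggu
miR-381-3p: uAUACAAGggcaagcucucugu
miR-539-5p: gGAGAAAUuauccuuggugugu

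The next 4 are members studied most often in other settings, and were not detected here. miR-127-3p is transcribed antisense to Rtl1 and targets its mRNA, miR-134-5p is known from neuronal dendrites, and miR-379-5p and miR-410-3p mark the ends of the large group beside Mirg.
miR-127-3p: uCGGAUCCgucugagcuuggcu
miR-134-5p: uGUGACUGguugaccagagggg
miR-379-5p: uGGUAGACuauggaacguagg
miR-410-3p: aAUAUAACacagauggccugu

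The 68 members with a mature sequence in the table held 67 distinct seeds. Only miR-376b-5p and miR-376c-5p shared one, and both were undetected.
miR-376b-5p: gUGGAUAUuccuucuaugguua
miR-376c-5p: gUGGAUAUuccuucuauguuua

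No other mouse miRNA of the array that matched the table carried the seed of miR-494-3p. The longest run of bases that miR-494-3p shared with any of the 130 other detected and matched miRNAs was 7 bases. Its GC content was 45.5%, near the member median of 47.6%, in a range of 23.8% to 72.7%.

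Most of the cluster gave no signal above background in any of the 3 groups. Detection on an array required that the scanner software marked over 50% of the spots of at least 1 probe of the miRNA as well above background. By this count 2 of the 73 cluster miRNAs (2.74%) were detected on at least 1 array, and 160 of the 538 other mouse miRNAs (29.7%). miR-494-3p was detected on all 8 arrays. miR-487b-3p was detected on 5 arrays. Counting detection on all arrays of a group, the WT group had 1 cluster miRNA, the MT group 1 and the control group 2, among 104, 106 and 142 mouse miRNAs in all. From bulk RNA, fewer cells that make a miRNA and less of it in each cell cannot be told apart.

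The difference in these counts came from miR-487b-3p. It was detected on both arrays of WT replicate 2, on MT replicate 2 and on both control arrays. On WT replicate 1 array 2, 50% of its spots were marked, which is just short of the threshold. On the column 1 arrays, 0% of its spots were marked on WT replicate 1 array 1 and 30% on MT replicate 1. These are the arrays with the widest negative control spots, and the lowest signal at which any probe was detected was 38.4 and 32.5 there, against 14.0 to 21.9 on the others. The part of this in the detection of miR-487b-3p was not tested. Without WT replicate 1 both miRNAs were detected on all WT arrays, and without MT replicate 1 both were detected on the remaining MT array.

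The other 71 cluster miRNAs were detected on no array, and 52 of them did not have a single marked spot on any of the 8 arrays. Of the 20 members on the side from Meg3 to the Rtl1 antisense transcript, none was detected. They were miR-770-3p, miR-770-5p, miR-673-3p, miR-673-5p, miR-493-3p, miR-337-5p, miR-337-3p, miR-540-3p, miR-540-5p, miR-665-3p, miR-431-5p, miR-431-3p, miR-433-5p, miR-433-3p, miR-127-3p, miR-127-5p, miR-434-3p, miR-434-5p, miR-136-5p and miR-136-3p. On the Rian side, miR-341-3p and miR-370-3p were both undetected.

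On the Mirg side, 49 of 51 members were undetected. In the order of their genes, those between miR-379 and miR-667 were miR-379-5p, miR-411-3p, miR-411-5p, miR-299-3p, miR-299b-5p, miR-380-3p, miR-380-5p, miR-1197-3p, miR-323-5p, miR-323-3p, miR-758-3p, miR-329-3p, miR-679-5p, miR-1193-3p, miR-666-3p, miR-666-5p, miR-543-3p, miR-495-3p and miR-667-3p. The miR-376 genes and those up to miR-382 gave miR-376c-5p, miR-376c-3p, miR-654-5p, miR-654-3p, miR-376b-5p, miR-376b-3p, miR-376a-5p, miR-376a-3p, miR-300-5p, miR-300-3p, miR-381-3p, miR-539-5p, miR-544-3p, miR-382-5p and miR-382-3p. The rest, up to the Dio3 end, were miR-134-5p, miR-668-3p, miR-485-5p, miR-485-3p, miR-154-5p, miR-154-3p, miR-496-3p, miR-377-3p, miR-541-5p, miR-409-3p, miR-409-5p, miR-412-3p, miR-369-5p, miR-369-3p and miR-410-3p.

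The 50 precursors of the cluster spanned 180.0 kb, but they were not spread evenly. The Mirg side, with 51 of the 73 members and both detected ones, lay between 145.4 and 180.0 kb from the first precursor. The precursor of miR-494 lay 151.6 kb from the first one and that of miR-487b 163.6 kb, which put them 12 kb apart. Between them lay 12 precursors giving 18 members on the array, and none of the 18 was detected.

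**Figure D1:**
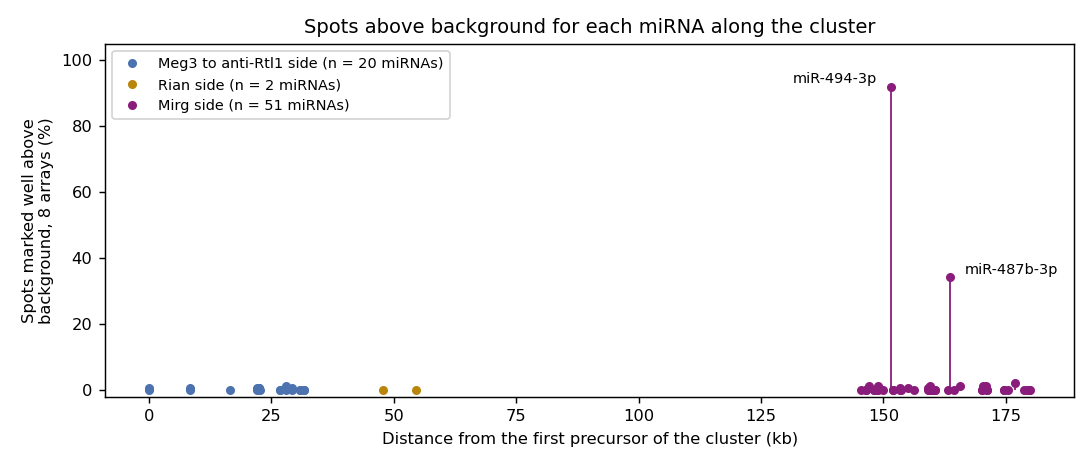
The percentage of spots marked well above background over the 8 arrays (y axis) is plotted against the distance of each miRNA's precursor from the first precursor of the cluster in kb (x axis), with 1 point for each of the 73 miRNAs, coloured by side. miR-494-3p and miR-487b-3p stand alone on the Mirg side, while their neighbours and the Meg3 and Rian sides lie at or near 0%.

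The undetected members had few marked spots, though a larger share than the negative controls. Over the 8 arrays, 28 of their 10909 spots (0.257%) were marked, and 1 of 3315 negative control spots (0.03%). Of the 28 marks, 19 were on WT replicate 1 array 1 and MT replicate 1. The median spot of these members read between -2.5 and -1.16 on an array, below the median negative control spot, which read between 2.92 and 4.32. Averaged over the arrays, the brightest probe of 1 of the 71 members, miR-668-3p, was above the mean of those negative control medians, at 5.53 signal units against 3.98.

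The well-known members were no exception. The brightest probe of miR-127-3p read between -1.45 and 4.2 over the 8 arrays, that of miR-379-5p between -7.92 and 5.68 and that of miR-410-3p between -4.98 and -0.452. For miR-134-5p the range was -5.03 to 16.0. The neighbours of miR-494 gave ranges of 0.252 to 6.4 for miR-329-3p and -3.21 to 9.11 for miR-679-5p, and those of miR-487b gave -3.6 to -0.262 for miR-381-3p and -1.9 to 2.73 for miR-539-5p.

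The members nearest to detection were miR-323-5p and miR-544-3p, each with 40% of a probe's spots marked on 1 array. For miR-323-5p this was WT replicate 1 array 1, where its probe read 19.1, and for miR-544-3p it was MT replicate 2, where its probe read 14.0. The scanner software's own call for each miRNA counted miR-544-3p as detected on that array, and it gave 3 cluster miRNAs on any array instead of 2 (4.11%), beside 200 of all 611 mouse miRNAs (32.7%). Counting a miRNA with any marked spot raised the number to 21 (28.8%), and that of all mouse miRNAs to 307 (50.2%). No spot of a member was saturated.

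**Figure D2:**
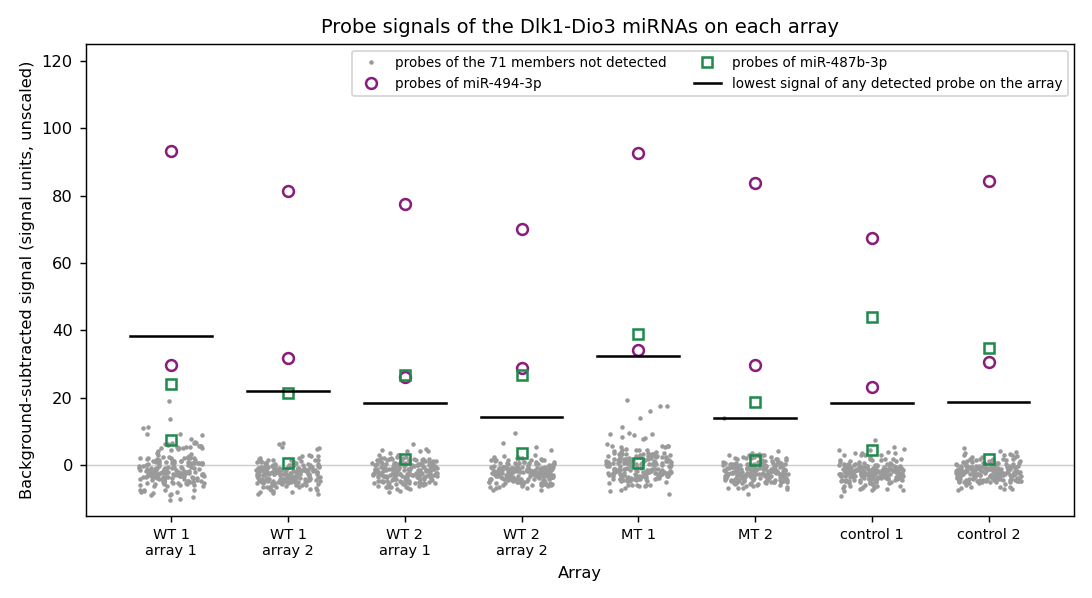
The background-subtracted signal of every probe (y axis, signal units, unscaled) is plotted for each of the 8 arrays (x axis), with grey dots for the 204 probes of the 71 undetected miRNAs, circles for the probes of miR-494-3p, squares for those of miR-487b-3p, and a black line at the lowest signal of any probe detected on that array. The grey dots gather around 0 on every array and spread most on WT replicate 1 array 1 and MT replicate 1, where the black line is also highest, and the brighter miR-494-3p probe lies above the line on all 8 arrays.

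For comparison between groups, each array was scaled by the 75th percentile over 174 probes with detection on every array, then put on the log2 scale and floored at 4.08, with the brightest probe taken for each miRNA. The test ran over 142 mouse miRNAs, those for which at least 1 group had detection on all of its arrays. Only miR-494-3p and miR-487b-3p were among them, the latter through the control group alone, so the counts below describe 2 of the 73 members.

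miR-494-3p read higher in both induced groups than in the control group, by differences that did not pass the test. Before scaling, its signals were 93.2 and 81.5 for the arrays of WT replicate 1, 77.4 and 70.0 for the second WT RNA, 92.5 and 83.8 for the MT replicates, and 67.4 and 84.3 for control replicates 1 and 2. On this scale the groups overlapped, with control replicate 1 the lowest of the 8 arrays.

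After scaling, its log2 levels were 6.63 and 6.48 on the arrays of WT replicate 1, 6.15 and 6.36 on those of replicate 2, 6.76 and 6.65 for the MT replicates, and 5.48 and 6.17 for the control replicates. Both MT arrays now lay above both control arrays, and the lowest WT array lay just below the higher control array. The group means were 6.41 ± 0.21 for WT, 6.71 ± 0.08 for MT and 5.83 ± 0.49 for control (SD, n = 2 RNA samples). In this order, the control spread reached into the range of the WT arrays.

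**Figure D3:**
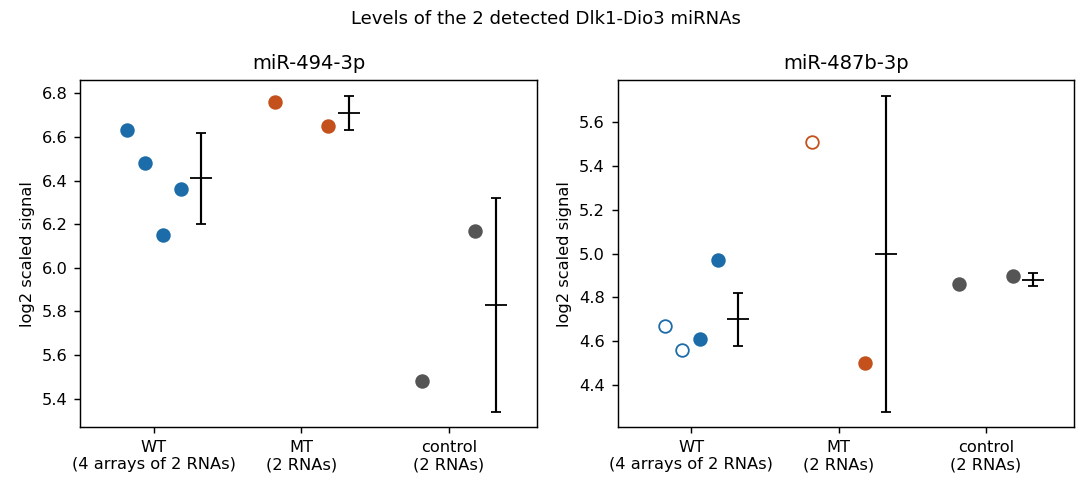
The log2 scaled signal (y axis) of miR-494-3p (left) and miR-487b-3p (right) is shown for each array by group (x axis), with filled points where the miRNA was detected, open points where it was not, and black bars for the group mean ± SD over 2 RNA samples. For miR-494-3p both MT points lie above both control points, and for miR-487b-3p the 3 groups overlap and the highest point, MT replicate 1 at 5.51, is an array without detection.

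Against the control group, miR-494-3p was higher in the WT group by 0.58 on the log2 scale (SE 0.25, 95% interval -0.01 to 1.17), with a limma unadjusted p of 0.053 and an adjusted p of 0.17. In the MT group it was higher by 0.88 (SE 0.25, 95% interval 0.29 to 1.47), or 1.84-fold, with an unadjusted p of 0.0097 and an adjusted p of 0.062. Between the WT and MT groups the difference, WT minus MT, was -0.30 (SE 0.25, 95% interval -0.89 to 0.29), with an adjusted p of 0.99. The interval leaves room for a difference in either direction between the 2 forms of the protein. The median over all 142 miRNAs was 0.11, 0.13 and -0.04 in these 3 comparisons. Under normexp background correction both differences from control passed the test, at 0.58 in WT (limma adjusted p = 0.0086) and 0.70 in MT (adjusted p = 0.0014), but 47.9% and 45.8% of all 142 miRNAs then passed too, and the medians over all miRNAs were 0.34 and 0.33. When only miRNAs detected on all 8 arrays were tested, the difference in MT passed (adjusted p = 0.032), as did 28.2% of the 103 miRNAs tested.

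The dimmer probe of miR-494-3p gave no difference of a known size, since control replicate 1 lay under the floor after scaling and 0% of its spots were marked on WT replicate 1 array 1. Its unscaled signals were 29.7, 31.7, 26.0 and 28.8 on the WT arrays, 34.3 and 29.8 on the MT arrays, and 23.2 and 30.7 on the control arrays, with control replicate 1 again lowest. With control replicate 1 set to the floor, its log2 level was higher than in control by 0.54 in WT and by 0.85 in MT, which are lower bounds for this reason.

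The differences were smaller without scaling. The control arrays had the highest 75th percentiles, 785 and 606 signal units, against 442 to 565 in the WT group and 442 and 432 in the MT group. Unscaled, miR-494-3p was higher than in control by 0.09 in WT and by 0.22 in MT on the log2 scale, and WT minus MT was -0.14. When the percentile was taken over all mouse probes, where it lies near background at 3.7 to 8.05 signal units, the differences from control were 0.22 in WT and 0.17 in MT, and WT minus MT was 0.06, and the last of these changed sign. That scaling moved the median of all 142 miRNAs in MT against control from 0.13 to -0.51. Relative to the median of all miRNAs tested, miR-494-3p was higher in the MT group by 0.75 under the main scaling and by 0.68 under the one over all probes, and higher in the WT group by 0.47 and 0.41. Over all settings the excess in MT lay between 0.36 (normexp) and 1.15 (without control replicate 2). In WT it lay between 0.09 (without control replicate 1) and 0.86 (without control replicate 2).

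Either control replicate changed the size. Without replicate 1 miR-494-3p was higher by 0.53 in the MT group and by 0.23 in the WT group, and without control replicate 2 by 1.23 and 0.93. On the side of the slide that WT replicate 2 shared with the control arrays the difference was 0.43, and on the side that WT replicate 1 shared with the MT arrays WT minus MT was -0.15. The MT and control arrays shared no side, so that the side and the group cannot be told apart from them alone. With the side as a term in a fit over all groups the difference of MT against control was 0.58 (95% interval -0.61 to 1.77). In all 19 other settings tried, miR-494-3p was higher in both induced groups than in the control group.

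**Figure D4:**
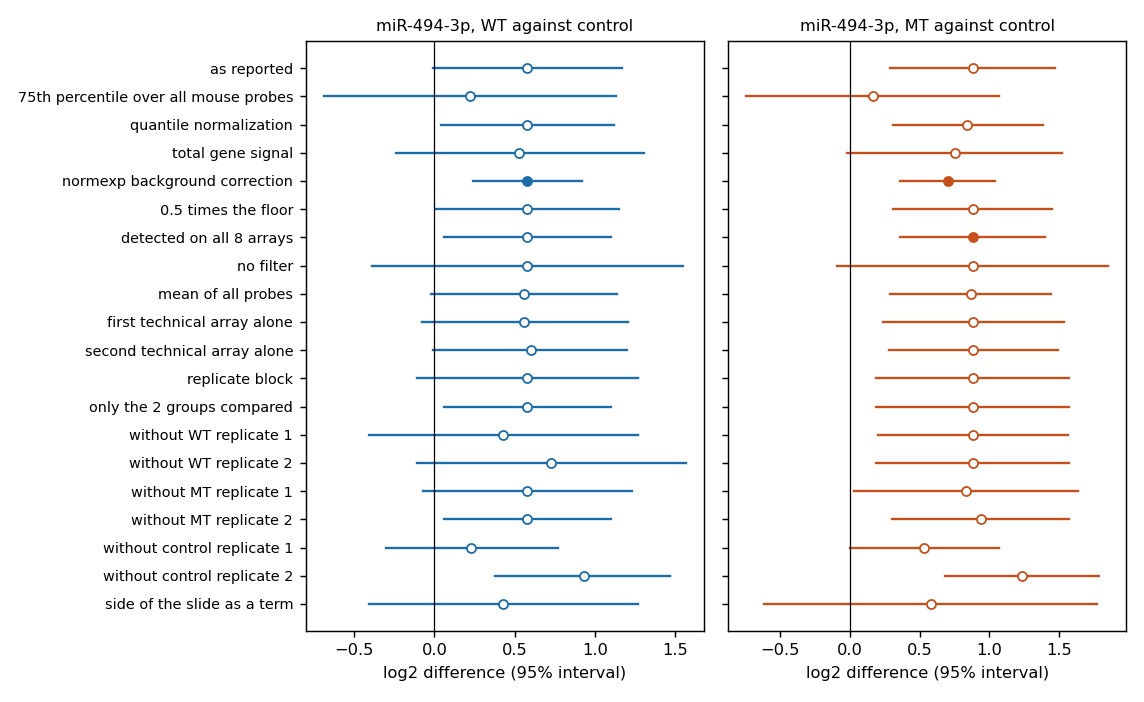
The log2 difference of miR-494-3p (x axis) from the control group is shown for the WT group (left) and the MT group (right) as reported and under 19 other settings (y axis), with lines for 95% intervals and filled points where the adjusted p was under 0.05. Every point lies to the right of 0, from 0.22 to 0.93 for WT and from 0.17 to 1.23 for MT, and most intervals of the WT panel reach below 0.

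miR-487b-3p was close to the detection limit, and after scaling the arrays of its groups overlapped. The unscaled signals of its brightest probe were 24.0 and 21.5 on the arrays of WT replicate 1, 26.6 and 26.7 on those of replicate 2, 39.0 and 18.8 for the MT replicates, and 43.9 and 34.8 for the control replicates. On this scale all 4 WT arrays lay below both control arrays, while the MT arrays held the lowest signal and 1 of the highest. The share of all miRNAs with this order before scaling was not counted. The control arrays were also the brightest at the percentile used for scaling. The unscaled log2 differences from control were -0.67 for WT and -0.53 for MT. On the scaled log2 scale the means were 4.70 ± 0.12 for WT, 5.00 ± 0.72 for MT and 4.88 ± 0.03 for control (SD, n = 2 RNA samples). The MT replicates, at 5.51 and 4.50, enclosed the means of both other groups. Both WT RNA samples, at 4.61 and 4.79, lay below both control samples, at 4.86 and 4.90. By array they overlapped, since WT replicate 2 array 2 read 4.97. The share of all miRNAs with this order of RNA samples was not counted.

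The differences of miR-487b-3p were -0.18 for WT against control (SE 0.31, 95% interval -0.92 to 0.56, limma unadjusted p = 0.59, adjusted p = 0.74) and 0.13 for MT against control (SE 0.31, 95% interval -0.61 to 0.87, unadjusted p = 0.70, adjusted p = 0.77). For WT against MT the difference was -0.30 (SE 0.31, 95% interval -1.04 to 0.44, unadjusted p = 0.36, adjusted p = 0.99). All 3 changed sign under some of the other settings. Its other probe lay at the floor on every array, with 0% of its spots marked.

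Across the cluster, limma called none of the 2 members tested at an adjusted p under 0.05 in any comparison, where it also called 0.0% of all 142 miRNAs. At an unadjusted p under 0.05 it called 0 of the 2 in WT against control, where 28.2% of all miRNAs passed, and 1 in MT against control, miR-494-3p, where 39.4% passed and 26.8% passed with the higher level in MT, its direction. In WT against MT 0 members and 0.0% of all miRNAs passed. No member was past 2-fold in any comparison, and over all miRNAs 2.11%, 0.704% and 0.0% were past it. The methods of the study name this size for gene expression arrays of mRNA, not for these miRNA arrays. The arrays of the MT group lay wholly above those of the control group for 1 of the 2 members and for 40.8% of all miRNAs. Those of the WT group lay wholly above the control arrays for 0 of the 2 members and for 29.6% of all miRNAs. Both comparisons against control used the same 2 control samples.

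Most miRNAs of other imprinted loci were undetected, but so were most mouse miRNAs. Of all 611, 162 (26.5%) were detected on at least 1 array. Another 48 miRNAs came from the introns of Sfmbt2 and from the H19, Igf2, Mest and Nespas/Gnas loci. Of these, 7 (14.6%) were detected on at least 1 array, namely 5 of the 39 of Sfmbt2 and 2 of the 3 of Nespas/Gnas. miR-296-5p of Nespas/Gnas and miR-669f-3p of Sfmbt2 were detected on all 8 arrays, as miR-494-3p was. In MT against control their log2 differences were 0.60 (SE 0.16, limma adjusted p = 0.061) and 0.76 (SE 0.23, adjusted p = 0.066), and in WT against control 0.42 (SE 0.16, adjusted p = 0.14) and 0.32 (SE 0.23, adjusted p = 0.35). For miR-494-3p, miR-296-5p and miR-669f-3p alike, the MT level was above the control level by an amount that did not pass the test. This was common on the array: 40.8% of all 142 miRNAs tested had both MT arrays above both control arrays, and 0.0% passed the test.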

How the data were processed

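miRNAs were measured with one-colour Agilent arrays in 2 RNA samples of each group. The files deposited for each array hold the background-subtracted intensity of every spot as Feature Extraction wrote it, and a series table repeats it to within 0.005 signal units for spots under 1000. The labels name Feature Extraction 9.1 and the file header 10.7.1.1. The header names mm9 as its build, which was not used: positions are those of GRCm38.p6, by name.

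Control and outlier spots were left out, spots of a probe were averaged, and the technical arrays of a WT RNA were averaged on the log2 scale. Precision is limited by the number of arrays. All 3 groups were fitted together with limma 3.58.1 (lmFit, eBayes) in R 4.3.3, without a replicate block, with Benjamini-Hochberg adjustment over the 142 miRNAs and a threshold of 0.05. An exact permutation test of 2 against 2 samples cannot give a p below 0.333 and was not used.

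Every detected member was named with its values, and the undetected ones by name. miR-544-3p, miR-323-5p, miR-668-3p and the neighbours were singled out after their values were seen. Members and lists were chosen with earlier results of these data known. Of the members, 68 matched a mature sequence. The code was checked on a single draw of simulated data per comparison, with independent normal noise and no floor, scaling or slide effect. There, 5 of 10 miRNAs changed 2-fold were called in WT against control (0 of 112 unchanged), 10 of 10 in MT against control (2 of 112) and 10 of 10 in WT against MT (3 of 112). These counts do not give the power of the test on the real arrays or a difference in power between the comparisons. Alternatives covered scaling, background correction, signal column, floor, filter, probes, technical arrays, replicate block, samples fitted and each replicate left out, with the side of the slide added after seeing the data. Figures were drawn with matplotlib 3.10.9.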

Additional observations from a re-analysis of the deposited data

How the results depend on the processing

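No member passed the threshold under most alternatives. The exceptions were normexp background correction, which called both members and 68 of all 142 miRNAs in WT against control (2 members, miR-494-3p 0.58 with a limma adjusted p of 0.0086 and miR-487b-3p 0.42 with 0.035) and 1 in MT against control (miR-494-3p 0.70, adjusted p = 0.0014) among 65 of all 142, and testing only the miRNAs detected on all 8 arrays, which called 1 member in MT against control (miR-494-3p 0.88, adjusted p = 0.032) among 29 of 103 miRNAs. The cause was not tested. Over all settings the adjusted p of miR-494-3p in MT against control lay between 0.0014 and 0.95. Leaving out each replicate gave 0 to 1 members past 2-fold in MT against control, the 1 being miR-494-3p at 1.23 without control replicate 2, with the lone control assumed to vary like the other groups.

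The median over the members tested was 0.20 in WT against control, 0.50 in MT against control and -0.30 in WT against MT. Scaling over all mouse probes gave -0.12, -0.21 and 0.09. In WT against control it was 0.50 with the total gene signal, 0.50 with normexp and 0.58 over members detected on all 8 arrays, and in MT against control 0.88 over the latter. With no filter the floor set the median of all 73 members to 0.0 in MT against control and 0.0 in WT against MT. Leaving out each replicate gave 0.02 to 0.38 in WT against control, the extremes being those without control replicates 1 and 2. It gave 0.22 to 0.79 in MT against control and -0.58 to -0.02 in WT against MT, the extremes being those without MT replicates 1 and 2.

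miR-487b-3p changed sign in WT against control with the total gene signal (0.48) and normexp (0.42), in MT against control with scaling over all probes (-0.59), quantile normalization (-0.04) and without MT replicate 1 (-0.38), and in WT against MT with scaling over all probes (0.12), normexp (0.04) and without MT replicate 1 (0.21). Leaving out each replicate gave it a range of -0.38 to 0.64 in MT against control and of -0.81 to 0.21 in WT against MT. miR-494-3p changed sign only in WT against MT with scaling over all probes (0.06).

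Detection on all arrays of a group rose from 1 to 2 members in the WT group with the scanner software's call per miRNA (2) and without WT replicate 1 (2), and in the MT group to 2 with the same call, to 3 with any marked spot and to 2 without MT replicate 1. With any marked spot, 21 members and 307 of 611 mouse miRNAs were detected on at least 1 array.

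With replicate number as a block, no member was called and the adjusted p of miR-494-3p in MT against control was 0.088. Deviations of same-numbered samples correlated over 142 miRNAs at 0.0223 (WT, MT), 0.391 (WT, control) and -0.464 (MT, control). With 1 difference per group, this cannot decide pairing. A block for the slide was not run because there was only 1 slide. Undetected members were not detectable at these signals, which does not show that they were absent.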

Other observations

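Another 4 mouse miRNAs of the array lie between Dlk1 and Dio3 but outside the list of numbers, and they are named here after their values were seen. miR-1188-5p, miR-882 and miR-453 were detected on 0 arrays. miR-1906 was detected on 5 arrays, 2 of the WT group, 1 of the MT group and 2 of the control group, and it has 2 entries in the RefSeq table, of which 1 lies on chromosome X, so its signal cannot be assigned to the cluster.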
